A study of Mus with 35 samples.

Results

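An antisense oligonucleotide (ASO) directed at Hnrnph2 was compared with a control ASO in the brains of wild-type (WT) mice collected at 8 weeks of age. The libraries were chosen by their titles, 3 from WT mice given the Hnrnph2 ASO and 3 from WT mice given the control ASO, 6 of the 35 libraries of the series. Tested were the 16516 of 55573 table rows that averaged 1 TPM or more in the 12 libraries of that age. TPM, a transcript share corrected for length and set to a common sum per library, lets levels of different genes be put side by side. All mice were C57BL/6J males, and each of them, controls included, was injected once with 30 µg of ASO into the cerebral ventricles at postnatal day 2 to 4. The WT mice were littermates of males hemizygous for a substitution in Hnrnph2, P209L or R206W. The same ASOs in 3 other settings are used below: P209L mice at 8 weeks, WT mice of the P209L cohort at 3 weeks and WT mice of the R206W cohort at 3 weeks, with 3 libraries per ASO in each. Nothing in the labels states that every library is from its own animal, so the spread between libraries may be partly technical. They name the ASOs only as control and Hnrnph2, and an uninjected group was not analysed here, so effects shared by both injections are not seen in these values.

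Hnrnph2 is an X-linked gene. Its product belongs to the hnRNP H/F proteins, which bind G-rich RNA and influence splicing and polyadenylation. The autosomal Hnrnph1 encodes a closely similar protein, while Hnrnph3, Hnrnpf and Grsf1 are more distant members of the family. Variants of human HNRNPH2 cause a neurodevelopmental disorder in which the nuclear import of the protein is affected. WT mice given the ASO carry no such variant, so the comparison describes the other RNAs of the brain where the ASO was directed at the normal transcript. The labels tell the ASOs apart only as control and Hnrnph2. Effects of a lower Hnrnph2 level therefore cannot be told apart from other effects of the Hnrnph2 ASO.

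The labels call the tissue brain, the design text names whole brain and the extraction protocol names dissected cortex. Genes of other regions were present in all 6 libraries: Gabra6, which granule cells of the cerebellum use in their GABA receptors, lay between 56.5 and 84.4 TPM, and Hcrt, the hypothalamic orexin precursor, between 13.4 and 29.7 TPM. WT control replicate 3 stood apart. The hindbrain and spinal cord genes Hoxb3 and Hoxb5 were at 0.01 and 0.02 TPM there, and the glycine transporter Slc6a5 was at 1.37 TPM. In the other 34 libraries of the series Hoxb3 lay between 0.29 and 4.11 TPM (median 1.99) and Slc6a5 between 6.20 and 25.5 TPM (median 15.7), whereas Hoxb5 also reached a low of 0.03 TPM. Slc17a7, the vesicular glutamate transporter of cortical neurons, was at 705 TPM in that library and between 536 and 553 TPM in the other 5 WT libraries at 8 weeks. In the other 34 libraries of the series Slc17a7 lay between 536 and 849 TPM (median 737), so 705 TPM was not high for the series. Along the first principal component of the 6 libraries, which held 35% of their variance, WT control replicates 2 and 3 were at opposite ends (-32.6 and 23.8) with the ASO libraries between them (-12.1 to 13.3). Results that rest on either control library are therefore given with and without it. Between the 12 libraries, the number of genes at 1 TPM or more (16277 to 16553) and the share of mitochondrially encoded RNA (13.5% to 15.4%) varied little. Structured non-coding RNAs varied more: their summed level was 1689 to 4085 TPM in the WT controls and 1789 to 3596 TPM in the WT ASO libraries. The median fold change of the 13 tested was 0.05 on the log2 scale, 0.48 without WT control replicate 2 and -0.21 without WT control replicate 3. Depth is unknown, since TPM carries no read totals.

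Hnrnph2 RNA fell in the WT brain. Its level was 109, 88.2 and 117 TPM in control replicates 1 to 3 and 18.5, 20.6 and 11.96 TPM in the Hnrnph2 ASO replicates. Every ASO library was far below every control library. The mean went from 105 ± 14.8 to 17.0 ± 4.50 TPM (SD, n = 3), a level 83.8% lower. On the scale log2(TPM + 1), used for every fold change in the text, the change was -2.58 (standard error, SE, 0.21), with an adjusted p of 0.0015 by limma. The exact two-sided permutation test gave p = 0.1, the smallest that 3 libraries against 3 allow. Hnrnph2 was lowered to 6.95 to 11.6 TPM in P209L mice at 8 weeks, a change of -3.42. The difference between the genotypes, -0.84 (SE 0.30), did not pass (adjusted p 0.933, unadjusted p 0.016). In the 3-week WT cohorts the ASO libraries lay between 16.4 and 26.7 TPM, and the change at 8 weeks differed from their mean change by -0.31 (SE 0.19), which did not pass either (adjusted p 0.998).

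Hnrnph1, the closest relative, was higher in every ASO library than in any control library but did not pass the test. It was at 333, 328 and 299 TPM in the controls and at 421, 429 and 385 TPM with the Hnrnph2 ASO. Its mean was 28.6% higher, with a log2 fold change of 0.36 (SE 0.067, 95% interval 0.21 to 0.51, adjusted p 0.389, unadjusted p 0.000224). The exact permutation p was 0.1, again the smallest possible. In means, Hnrnph1 was 91.6 TPM higher and Hnrnph2 87.7 TPM lower. The sum of both genes was 442, 417 and 415 TPM in the controls and 439, 449 and 397 TPM in the ASO libraries, so that the sums of the groups overlapped. The sums also overlapped in P209L mice at 8 weeks and in the 3-week WT of the R206W cohort. In the 3-week WT of the P209L cohort they did not, at 344 to 364 TPM in the controls and 383 to 428 TPM with the ASO. Hnrnph1 held 3.04, 3.72 and 2.56 times the TPM of Hnrnph2 in the controls and 22.7, 20.8 and 32.2 times in the ASO libraries. A fit of all 35 libraries, which estimates the spread from more groups, gave the same fold change with an adjusted p of 0.0474. The groups also did not overlap in P209L mice at 8 weeks (0.30) or in the 3-week WT of the P209L (0.66) and R206W (0.26) cohorts. The difference between the ages, -0.09 (SE 0.079), did not pass (adjusted p 0.998).

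The more distant family members overlapped between the groups. Hnrnph3 was at 56.3, 57.9 and 50.4 TPM in the controls and 57.6, 50.4 and 52.5 TPM with the ASO (-0.03, 95% interval -0.23 to 0.16). Hnrnpf, which regulates the same kind of G-rich sites, was at 90.4, 80.3 and 88.8 TPM against 82.8, 94.8 and 88.9 TPM (0.04, -0.15 to 0.23). Grsf1, which acts on mitochondrial RNA, was at 82.7, 62.4 and 78.5 TPM against 75.0, 86.0 and 79.9 TPM (0.11, -0.15 to 0.38).

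**Figure D1:**
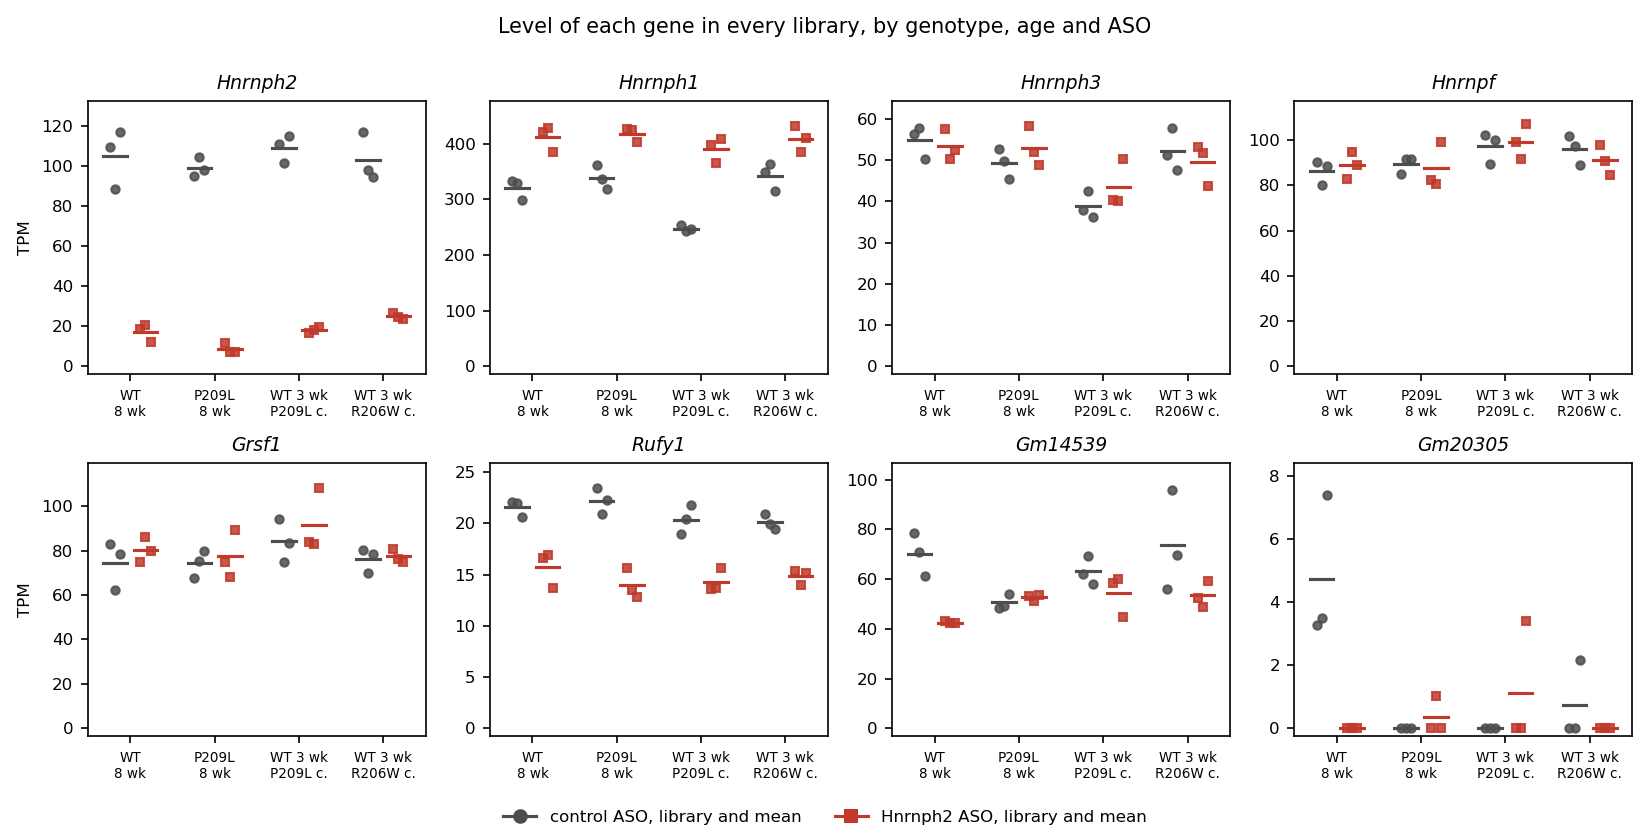
TPM of 8 genes in every library of the control ASO (grey circles) and Hnrnph2 ASO (red squares) groups, in WT and P209L mice at 8 weeks and in WT mice of the P209L and R206W cohorts at 3 weeks; points are libraries (3 per group) and lines are means. Hnrnph2 was lower, Hnrnph1 higher and Rufy1 lower without overlap in all 4 comparisons, while Hnrnph3, Hnrnpf and Grsf1 overlapped, and the pseudogenes Gm14539 and Gm20305 were lower without overlap in WT at 8 weeks only among these 4 comparisons.

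Over the whole table, 3 of 16516 genes (0.0182%) passed an adjusted p of 0.05, and all 3 were lower: Hnrnph2 and the pseudogenes Gm14539 and Gm20305. No gene was called higher by limma, although 340 genes were higher and 224 lower at an unadjusted p under 0.05 (3.41% in all). Gm14539 (X:20581036 to 20581370) was at 78.4, 70.9 and 61.3 TPM in the controls and at 43.1, 42.2 and 42.3 TPM with the ASO, without overlap (-0.70, SE 0.081, adjusted p 0.0267). Gm20305 (1:180854059 to 180854514) was at 3.28, 3.51 and 7.42 TPM in the controls and was listed at 0 in all 3 ASO libraries (adjusted p 0.0267). Neither difference appeared in P209L mice of the same age, where Gm14539 lay between 48.5 and 54.1 TPM with the control ASO and between 51.3 and 53.6 TPM with the Hnrnph2 ASO. Gm20305 was listed at 0 in all 3 P209L controls and in 2 of the 3 P209L ASO libraries, with 1.04 TPM in the other. It therefore met the filter of 1 TPM only through the WT controls, the group where it was high. Its adjusted p is a description for that reason, and with no filter on low values Gm20305 was not called. In the 3-week WT the groups overlapped for both pseudogenes. The mean of Gm14539 was nevertheless lower with the ASO in both cohorts, at 54.4 against 63.2 TPM (P209L cohort) and 53.5 against 73.9 TPM (R206W cohort). Pseudogenes can share reads with their parent genes, and the counting was not stated to resolve this, so both are uncertain. The calls also depended on single libraries. Hnrnph2 was the only gene called when replicate 1 or 2 of the WT or of the P209L controls, WT ASO replicate 2 or P209L ASO replicate 1 was left out. Leaving out replicate 3 of either control group kept Gm14539 beside Hnrnph2, and Gm20305 was not called. Without WT control replicate 3 Gm20305 no longer met the filter of 1 TPM and was not tested. Without WT ASO replicate 1 or 3 neither pseudogene was called, and 1 other row joined Hnrnph2 in each case.

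The precision of the test sets what could be seen. The median SE over the tested genes was 0.11 and the median 95% interval reached 0.24 to either side, so that a median gene would need a change well above that to pass correction over 16516 genes. Among the 13786 protein-coding genes, 9 had a fold change of at least 1 in size on the log2 scale and 53 of at least 0.5. Rows that were not protein coding or not matched to RefSeq were fewer (2730) but held 125 of the 134 differences of at least 1. Without overlap between the groups were 1183 genes (7.16%), 782 higher (4.73%) and 401 lower (2.43%). The values of all genes were shifted slightly upward: 65.4% of them had a fold change above 0, with a median of 0.04. Rescaling by median ratios brought that median to 0.003, and without WT control replicate 2 it was -0.002 with 49.1% above 0. Counts of members above 0 in a gene list are to be read against these shares.

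**Figure D2:**
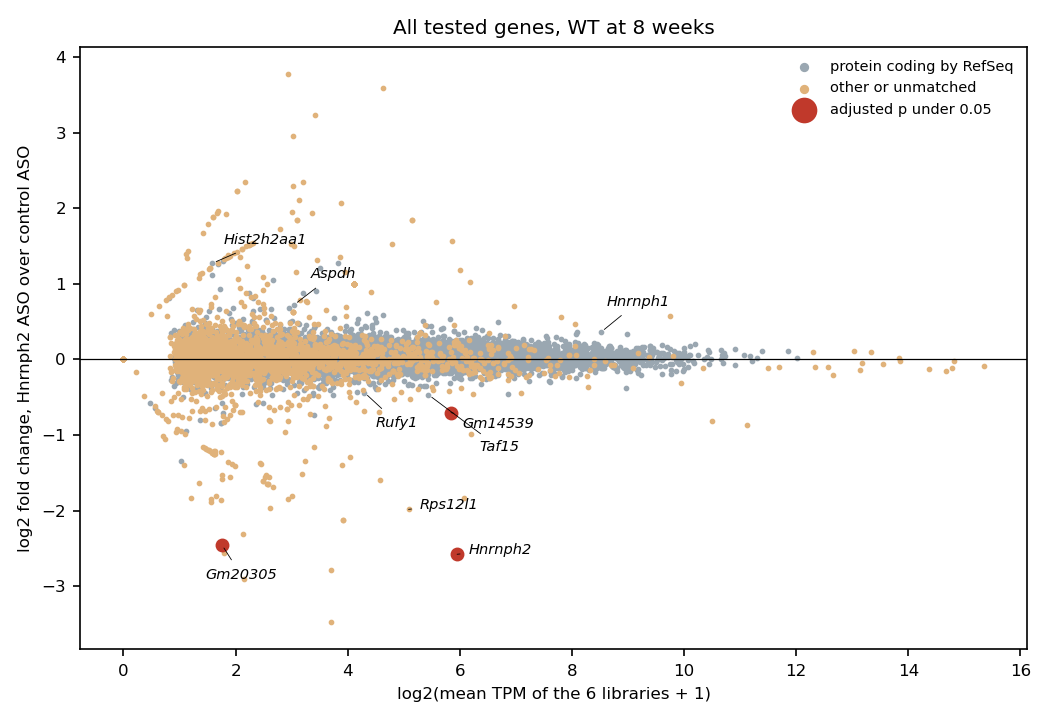
Log2 fold change of every tested gene in WT mice at 8 weeks (y axis, Hnrnph2 ASO over control ASO) against its mean level on a log2 scale (x axis); grey points are protein coding, tan points are other or unmatched rows, and red points passed an adjusted p of 0.05. Hnrnph2 at -2.58 lies far outside the band of the protein-coding genes, most of the other large differences are in tan, and only 3 points are red; for rows listed at 0 in a whole group, such as Gm20305, the height depends on the 1 TPM added before the logarithm.

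Below the 3 called genes, the genes with the smallest p among those without overlap were followed, and none of them passed. Higher with the ASO was Aspdh, which resembles aspartate dehydrogenases, at 4.92, 5.78 and 4.81 TPM in the controls and 10.7, 6.97 and 10.3 TPM with the ASO (0.72, SE 0.16, adjusted p 0.722). Hist2h2aa1, a replication-dependent histone H2A gene with a near-identical neighbouring copy that makes its count uncertain, was at 0.52 to 0.89 TPM against 2.28 to 3.78 TPM (1.27, adjusted p 0.389). Cbarp, which restrains voltage-gated calcium channels, was at 254 to 262 TPM against 289 to 303 TPM (0.19, adjusted p 0.957). Ptpn6, a phosphatase that dampens signalling in microglia and other immune cells, was at 2.34 to 2.66 TPM against 3.30 to 4.32 TPM (0.47). The interferon-induced GTPase gene Iigp1 was at 1.01 to 1.27 TPM against 1.65 to 2.10 TPM (0.43). Hcrt was at 13.4 to 16.4 TPM against 18.5 to 29.7 TPM (0.62), the transcription factor gene Mecom at 1.06 to 1.52 TPM against 2.14 to 2.57 TPM (0.56) and Rtl8c, derived from a retrotransposon, at 225 to 258 TPM against 284 to 293 TPM (0.23). The adjusted p of each of these last 5 was 0.957. The small nucleolar RNA Snord8 was listed at 0 in all controls and at 10.8, 9.37 and 19.9 TPM with the ASO. It was called by limma only in a fit of the WT groups alone. Aspdh, Cbarp, Ptpn6 and Iigp1 were above 0 in all 4 comparisons, while Hist2h2aa1, Mecom and Hcrt were near 0 or below it in at least 1 of the 3-week cohorts.

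Lower with the ASO, again without passing, was Mpnd, which encodes a protein with a deubiquitinase-like domain. It was at 89.7, 99.3 and 86.0 TPM in the controls and at 71.9, 74.2 and 72.6 TPM in the ASO libraries (-0.32, SE 0.064, adjusted p 0.501). Taf15, an RNA-binding protein of the FET family, was at 50.4, 49.1 and 48.4 TPM against 38.7, 32.6 and 35.3 TPM (-0.47, SE 0.099, adjusted p 0.722). In both genes the 3 values of each group lay close together, and the groups were well apart. Pet100, an assembly factor of cytochrome c oxidase, was at 35.9 to 39.3 TPM against 27.3 to 30.4 TPM (-0.33), and Ten1, a subunit of the telomere-binding CST complex, was at 40.6 to 50.7 TPM against 33.5 to 37.5 TPM (-0.36). Duxbl2, a double-homeobox gene with near-identical copies, was at 1.39 to 2.27 TPM against 0.19 to 0.78 TPM (-0.95, adjusted p 0.389). The ribosomal protein pseudogene Rps12l1 was at 27.8 to 67.1 TPM against 7.22 to 26.9 TPM (-1.98). Mpnd was lower without overlap in all 4 comparisons (-0.24 in P209L mice, -0.28 and -0.29 in the 3-week WT), whereas Taf15 was lower without overlap in the WT of all cohorts (-0.22 and -0.41 at 3 weeks) and at -0.01 in P209L mice. For Taf15 the P209L controls, at 38.1 to 43.0 TPM, were already below the WT controls, and the difference of the ASO effects (0.46, SE 0.14) did not pass (adjusted p 0.933).

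**Figure D3:**
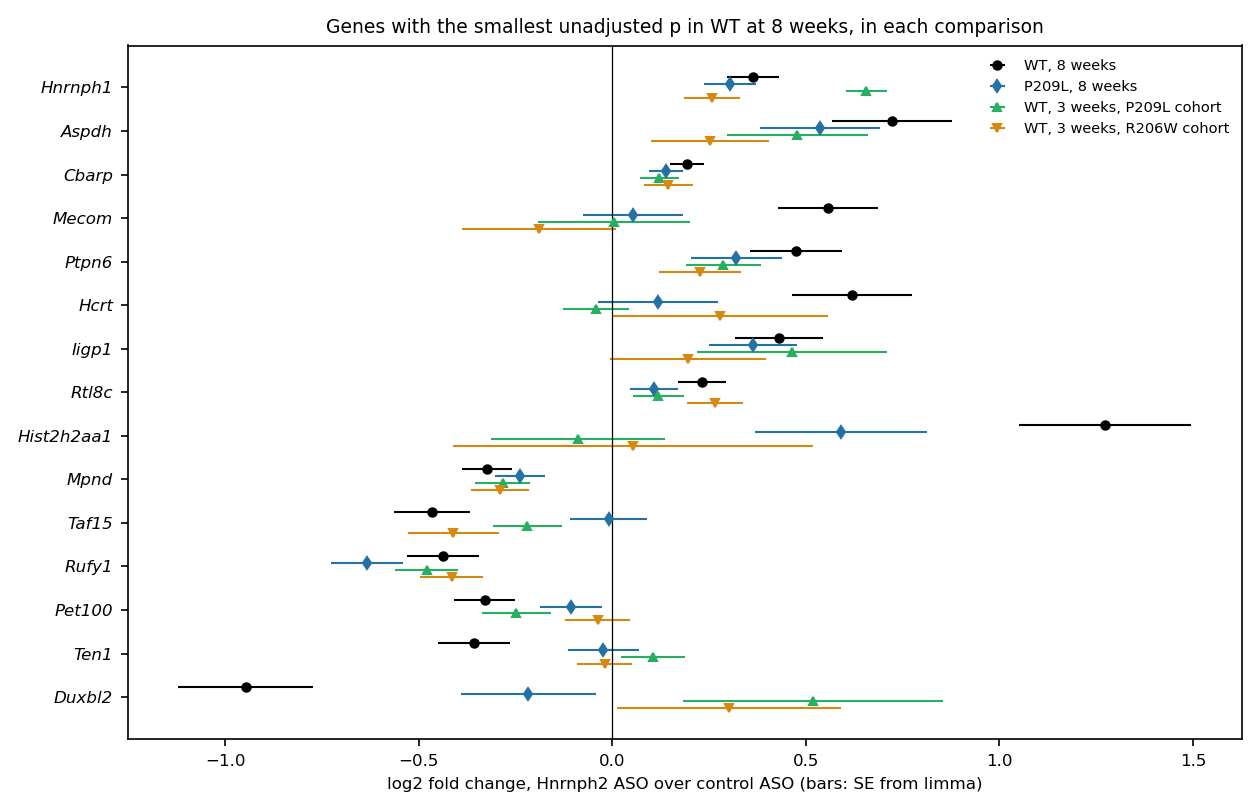
Log2 fold change with its SE (x axis) of 15 genes, the Hnrnph2 ASO over the control ASO, in WT at 8 weeks (black), P209L at 8 weeks (blue) and WT at 3 weeks in the P209L (green) and R206W (orange) cohorts; the genes were chosen by their p in WT at 8 weeks, so the black points are a description. Hnrnph1, Cbarp, Ptpn6, Mpnd and Rufy1 lay on the same side of 0 in all 4 comparisons, whereas Ten1 and Duxbl2 did not.

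Rufy1, which encodes an effector of endosomal Rab proteins, lies 2757 bases from the end of Hnrnph1 on chromosome 11 (Rufy1 at 11:50389286 to 50431274, Hnrnph1 at 11:50375257 to 50386528, build mm10, RefSeq coordinates). It was at 22.1, 22.0 and 20.7 TPM in the WT controls and at 16.6, 16.9 and 13.8 TPM with the ASO, without overlap (-0.44, SE 0.093, adjusted p 0.722). The same was seen in each comparison that shares no library with it. Rufy1 fell in P209L mice at 8 weeks from 20.9 to 23.4 TPM in the controls to 12.8 to 15.7 TPM with the ASO (-0.63, adjusted p 0.0356). In the 3-week WT it was at 19.0 to 21.8 against 13.7 to 15.7 TPM in the P209L cohort (-0.48) and at 19.4 to 21.0 against 14.0 to 15.4 TPM in the R206W cohort (-0.41), not passing in either (adjusted p 0.498 and 0.488). The difference between ages was 0.01 (SE 0.10). Of the 11 tested neighbours of Hnrnph1, Rufy1 was the only one at an unadjusted p under 0.05, and the median of the 11 was 0.04. Around Hnrnph2 itself on the X chromosome, 15 neighbours were tested and none passed (median 0.07, range -0.22 to 0.15). The adjacent genes Gla, the lysosomal galactosidase, and Rpl36a, a ribosomal protein, had changes of 0.10 and -0.02 and overlapped between the groups. Bex1, a small neuronal adaptor further along the X chromosome, was lowest at -0.22 (unadjusted p 0.0364), and at -0.12 without WT control replicate 2.

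The other WT cohorts share no library with the 8-week mice and allow a count across them, a rule chosen after the values were seen. In 42 of the 16516 genes (0.254%) the WT groups did not overlap, in the same direction, in all 3 cohorts, 23 of them higher and 19 lower with the ASO. In 15 (0.0908%) this also held in P209L mice at 8 weeks. Those 15 include Hnrnph2, Hnrnph1, Rufy1, Mpnd and Ptpn6, and also Pmvk, an enzyme of cholesterol synthesis, at 49.8, 54.4 and 45.9 TPM against 45.4, 43.4 and 40.4 TPM (-0.21). Ntm, a neuronal adhesion protein, was at 156 to 177 TPM against 140 to 148 TPM (-0.18), and Fuca2, a fucosidase, at 40.2 to 44.7 TPM against 45.5 to 52.1 TPM (0.21). Of the 375 protein-coding genes other than Hnrnph2 at an unadjusted p under 0.05 in WT at 8 weeks, 70.4% and 70.7% had the same sign in the 3-week WT of the P209L and R206W cohorts and 68.8% in P209L mice. Over all protein-coding genes these shares were 59.6%, 52.0% and 47.7%. No test was made of these shares.

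Among 47 gene lists, no member outside the hnRNP H/F family passed the test, so lists are described by their medians beside that of all genes, 0.04. Rescaling by median ratios brought the median of all genes to 0.003. The medians of SR proteins, RNase H and decay genes, the p53 response and pericytes became -0.02 each. Those of myelin genes and the postsynaptic density became -0.03 and -0.009. The rescaled medians of leptomeninges, olfactory bulb and erythrocytes were -0.12, -0.11 and -0.20. Whether a list has a direction of its own was not tested. Rescaling left the MHC class I and homeostatic microglia medians at 0.13, complement at 0.15, astrocytes at 0.07 and immediate early genes at 0.19. Of 22 tested genes of the type I interferon response, which cells mount against foreign nucleic acids, 21 lay above 0, with a median of 0.17. The groups did not overlap in 6 of the 22, against 7.16% of all genes. Their summed level was 190 to 203 TPM in the controls and 211 to 220 TPM with the ASO. Ifi27 was at 53.5 to 56.0 TPM against 57.4 to 60.8 TPM (0.11), and Usp18, an inhibitor of the pathway that it induces, was at 0.72 to 0.96 TPM against 1.15 to 1.32 TPM (0.30). The list median was 0.15 to 0.17 with any 1 WT library left out and 0.14 after rescaling by median ratios. It was 0.42 in P209L mice at 8 weeks and 0.12 and 0.20 in the 3-week WT of the P209L and R206W cohorts, while the difference between the genotypes passed for no member.

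Genes of MHC class I presentation had 11 of 12 members above 0 (median 0.17). Tap2 and Tap1, which carry peptides into the endoplasmic reticulum, did not overlap between the groups. They were the only 2 of the 12 without overlap, against 7.16% of all genes. Tap2 was at 5.75, 5.61 and 5.17 TPM against 7.83, 6.76 and 6.39 TPM (0.29, SE 0.080, unadjusted p 0.00385, adjusted p 0.957) and Tap1 at 2.19 to 2.44 TPM against 2.72 to 3.07 TPM (0.24, unadjusted p 0.0244). The median of the whole list was 0.25 in P209L mice and 0.13 and 0.16 in the 3-week WT. Tap1 itself had a lower mean with the ASO in the 3-week WT of the R206W cohort, 1.92 against 2.14 TPM. Its mean was higher with the ASO in P209L mice at 8 weeks and in the 3-week WT of the P209L cohort.

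Microglial genes were above 0 as well: all 17 genes of homeostatic microglia (median 0.17) and all 16 of activated microglia (median 0.16), with none and 1 of them without overlap, shares at or below the 7.16% of all genes. None reached an unadjusted p of 0.05. Among the 11 tested complement genes 10 lay above 0 (median 0.18), and C1qc, a subunit of the initiating complex made by microglia, was at 49.4, 55.6 and 51.4 TPM against 55.1, 59.7 and 71.4 TPM (0.24), with overlap. The summed level of homeostatic microglia was 326 to 418 TPM in the controls and 357 to 477 TPM with the ASO. In bulk tissue a difference in the number of cells of a type and one in RNA per cell cannot be told apart. Without WT control replicate 3 the homeostatic median was 0.25 and 5 of the 17 were at an unadjusted p under 0.05, all higher. In that fit 1601 of all 16517 tested genes were at an unadjusted p under 0.05, 1159 of them higher (median 0.06). Without WT control replicate 2 the homeostatic median was 0.11. In the other comparisons it was 0.16 in P209L mice and 0.02 and 0.03 in the 3-week WT. Genes of blood-borne leukocytes, the other source of such transcripts, had 5 of 8 members above 0 (median 0.05), with Cd3e and Cd8a among the 8 further members that were under 1 TPM. The part of microglial or leukocyte content in the interferon and MHC values was not tested.

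Astrocytes, which take up potassium and glutamate, had 15 of 16 genes above 0 (median 0.12). Aqp4, the water channel of their endfeet, was at 74.9, 68.1 and 72.7 TPM against 79.3, 98.3 and 107 TPM, without overlap (0.38, SE 0.18, unadjusted p 0.0552). Of 14 reactive astrocyte genes 11 were above 0 (median 0.13), with Serpina3n at 13.2 to 15.5 TPM against 17.1 to 17.7 TPM (0.24). In oligodendrocyte precursors 4 of 16 did not overlap, all higher, against 4.73% of all genes (median 0.10). The precursor median was 0.02 with 9 of 16 above 0 without WT control replicate 2, and in the 3-week WT it was -0.03 and -0.11. Olig2, a transcription factor of the lineage, was at 22.1 to 24.7 TPM against 25.6 to 28.9 TPM (0.21, unadjusted p 0.0212), and Nkx2-2 at 8.52 to 9.14 TPM against 9.71 to 11.7 TPM (0.28). Myelin genes were evenly split, 11 above and 10 below 0 (median 0.01), from Opalin at -0.33 to Hapln2 at 0.29. Opalin was at 25.2 to 29.3 TPM against 19.8 to 24.3 TPM (unadjusted p 0.0295). In the 3-week WT of the R206W cohort it went the other way without overlap, at 29.6 to 31.0 against 35.1 to 37.1 TPM. Its groups overlapped in P209L mice at 8 weeks and in the 3-week WT of the P209L cohort. Without overlap were 1 of 19 members in the endothelium (median 0.07) and 2 of 13 in pericytes and smooth muscle (0.02). In the choroid plexus (0.09) and leptomeninges (-0.08) it was 0 of 16 each. The share over all genes was 7.16%. All 7 erythrocyte genes were below 0 (median -0.16), with Hba-a2 at 419 to 692 TPM against 296 to 563 TPM (-0.38). The groups overlapped in all 7, and the list median was 0.39 in P209L mice and 0.50 and 0.92 in the 3-week WT.

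The lists of neuronal activity, brain regions and synapses moved with the choice of control libraries. With any 1 WT library left out, the immediate early median ran from 0.08 to 0.34. That of the thalamus, hypothalamus and brainstem ran from 0.14 to 0.47. Both stayed above 0.04, the median of all genes, and the homeostatic microglia median moved as well, from 0.10 to 0.25. Of 35 immediate early genes, which neurons and other cells switch on within minutes of a stimulus, 32 lay above 0 (median 0.23). Ccn1, a secreted matrix protein, was at 6.12, 6.59 and 3.91 TPM against 13.2, 9.64 and 9.79 TPM, without overlap (0.87, SE 0.27, unadjusted p 0.00786, adjusted p 0.957). Jun was at 36.7, 36.5 and 36.6 TPM against 40.0, 43.9 and 41.9 TPM (0.19), and Btg2, an antiproliferative regulator, was at 15.5 to 20.1 TPM against 20.3 to 29.2 TPM (0.55). Without WT control replicate 3 the list median was 0.08, with 24 of 35 above 0, whereas Ccn1 was at 0.68. The list median was 0.73 in P209L mice, and 0.05 and 0.19 in the 3-week WT.

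Genes of the thalamus, hypothalamus and brainstem had the highest list median, 0.24, with 22 of 24 above 0. Slc6a5 was at 19.4, 7.41 and 1.37 TPM against 16.7, 17.7 and 16.7 TPM (1.28), and Hoxb3 at 2.83, 1.58 and 0.01 TPM against 3.60, 2.63 and 3.19 TPM (0.94). In both genes WT control replicate 3 was lowest, and replicate 2 was also below every ASO library. Without replicate 3 the list median was 0.14 and 13 of 24 lay above 0, and Slc6a5 and Hoxb3 were at 0.46 and 0.39. Hcrt was at 0.55 without replicate 3. Genes of the postsynaptic density (median 0.03), presynaptic release (0.04), GABA receptors (0.06) and voltage-gated channels (0.09) were close to the median of all genes. Without WT control replicate 2 these medians were -0.07, -0.05, -0.08 and -0.03, and without WT control replicate 3 they were 0.16, 0.17, 0.16 and 0.23. Gabra2, a GABA receptor subunit, was the lowest of its list at 21.3 to 23.7 TPM against 18.2 to 20.4 TPM (-0.22, unadjusted p 0.0177), and Hcn2, a pacemaker channel, was at 108 to 132 TPM against 133 to 146 TPM (0.23, and 0.15 without WT control replicate 3).

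Genes that handle RNA and its transport had medians close to that of all genes, but these also moved with the control libraries. The medians of other hnRNP and FET genes, SR proteins and transportins were -0.04, -0.04 and -0.03 without WT control replicate 2. Without WT control replicate 3 they were 0.08, 0.03 and 0.15. The median of all genes was -0.002 and 0.06 in these 2 fits. The values that follow are from the fit with every library. The 28 other hnRNP and FET genes had a median of 0.06, with Taf15 lowest at -0.47. Hnrnpa0 was at 95.1 to 102 TPM against 103 to 115 TPM (0.16, unadjusted p 0.0246). The 33 SR proteins and neuronal splicing regulators had a median of 0.02 with no member at an unadjusted p under 0.05 and none without overlap. Of 28 transportins and importins (median 0.05) only Ran, the GTPase that drives nuclear transport, did not overlap, at 193 to 264 TPM against 268 to 349 TPM (0.37, unadjusted p 0.0202). Ran was at 0.22 (unadjusted p 0.0905) without WT control replicate 2. The 23 genes of RNase H and RNA decay had a median of 0.02, and the 19 tested genes of the p53 and DNA damage response one of 0.01. Endosomal and nucleic acid sensing genes had a median of 0.11, with Tlr3, a receptor for double-stranded RNA, at 6.20 to 7.85 TPM against 8.23 to 9.85 TPM (0.35) and its relatives' adaptor Myd88 at 4.36 to 4.86 TPM against 5.19 to 5.34 TPM (0.16).

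Nuclear genes of oxidative phosphorylation did not overlap in 7 of 31 members, against 7.16% of all genes, and the differences were small (median 0.07). Cox7a2, a subunit of cytochrome c oxidase, was at 332, 364 and 296 TPM against 369, 380 and 385 TPM (0.20, unadjusted p 0.0283). Without WT control replicate 3 the list median was -0.002 and Cox7a2 was at 0.12 (unadjusted p 0.116). Of 15 mitochondrially encoded genes 12 were below 0 (median -0.08). Without WT control replicate 2 only 7 of the 15 were below 0 (median 0.009), and without WT control replicate 3 it was 12 (median -0.05). mt-Co2 was at 2938, 3118 and 2349 TPM against 2376, 1703 and 886 TPM (-0.86, unadjusted p 0.0196), with overlap, and mt-Nd3 was at 551 to 816 TPM against 939 to 1075 TPM (0.58). Nuclear copies of mitochondrial sequence can share their reads, so these are uncertain. Stress lists had medians of 0.06 for heat shock genes and -0.001 for the integrated stress response. Those medians were 0.01 and 0.001 without WT control replicate 2, and -0.03 and -0.06 without WT control replicate 3.

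**Figure D4:**
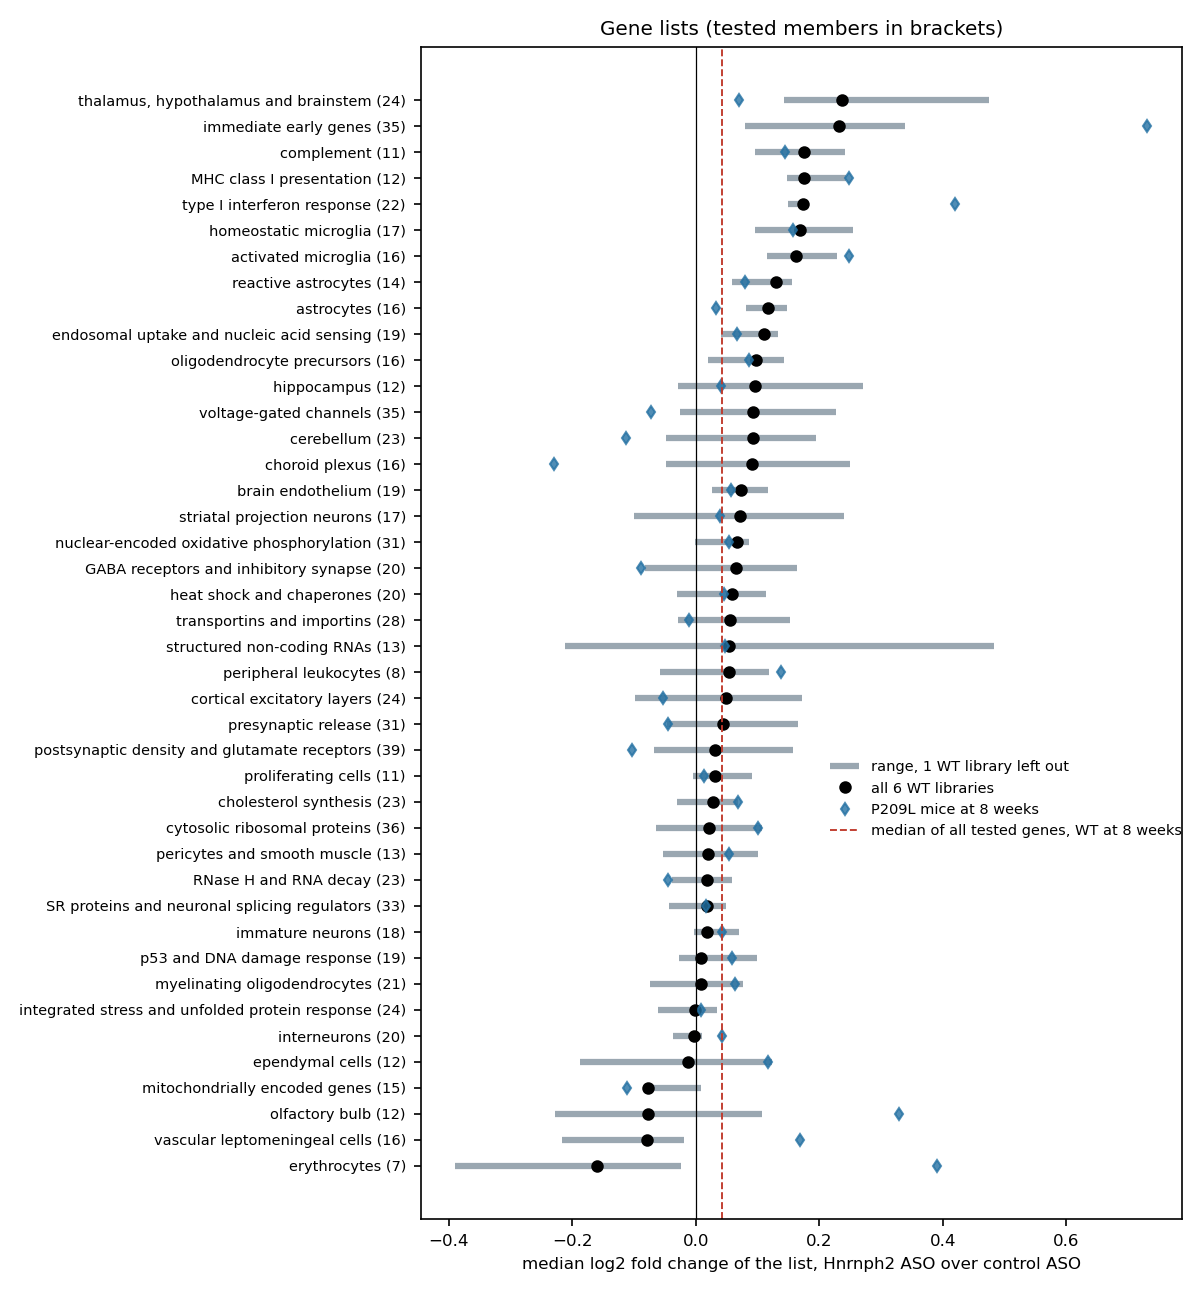
Median log2 fold change of the tested members of each gene list (x axis, Hnrnph2 ASO over control ASO; number of members in brackets) in WT at 8 weeks (black), the range of that median with any 1 of the 6 WT libraries left out (grey bars), and the median in P209L mice at 8 weeks (blue); the dashed line is the median of all tested genes in WT. Interferon, MHC class I, complement, microglial, astrocyte, immediate early and thalamus, hypothalamus and brainstem lists lay above the dashed line whichever 1 library was left out. The lists of the postsynaptic density, presynaptic release, GABA receptors and voltage-gated channels ranged to both sides of 0.

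An earlier analysis of these same libraries found 9 genes raised in mutant mice of each of the 3 cohorts, and the WT values show the ASO at those genes without a mutation. The WT controls at 8 weeks were part of that choice, so the values are a description. Ppp1r9b, the spine scaffold spinophilin, was at 285, 313 and 397 TPM in the WT controls and at 281, 314 and 304 TPM in WT with the ASO (-0.13, 95% interval -0.37 to 0.10). Ddn, the dendritic protein dendrin, was at 288, 321 and 484 TPM against 314, 343 and 328 TPM (-0.11, -0.46 to 0.24). Shank1, a scaffold of the postsynaptic density, was at 109, 99.3 and 146 TPM against 105, 119 and 118 TPM (-0.04, -0.30 to 0.23). The groups overlapped in all 9, and in Ppp1r9b, Ddn and Shank1 the highest value was that of WT control replicate 3. The other changes were 0.02 for Ilrun, 0.06 for Tnpo2, a nuclear import receptor of hnRNP proteins, 0.04 for Brsk1, -0.09 for Fbxl19, -0.02 for Foxo4 and 0.29 for the pseudogene Gm31166. In P209L mice of the same age the ASO effects on the 9 genes ran from -0.44 to -1.44. Ppp1r9b was at 755 to 766 TPM in the P209L controls and at 305 to 360 TPM in P209L mice with the ASO.

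Whether the ASO acted differently in the 2 genotypes was tested gene by gene, and 1 gene of 16516 (0.00605%) passed, Ilrun, a regulator of inflammatory signalling. It was at 128, 121 and 151 TPM in the WT controls and 129, 140 and 137 TPM in WT with the ASO. In P209L mice it was at 259 to 270 TPM with the control ASO and 137 to 142 TPM with the Hnrnph2 ASO, a level within the range of the WT controls. The difference of the ASO effects was -0.96 (SE 0.11, adjusted p 0.0402). No gene passed this test once replicate 1 or 2 of the WT controls, replicate 2 of the P209L controls, WT ASO replicate 2 or P209L ASO replicate 1 was left out, while 7 passed without WT control replicate 3. For Ppp1r9b it was -1.06 (unadjusted p 2.34e-05) and for Gm31166 -1.73 (unadjusted p 3.77e-05), both with an adjusted p of 0.126. Since Ilrun was among the genes chosen for being high in these P209L controls, its interaction partly repeats that choice.

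**Figure D5:**
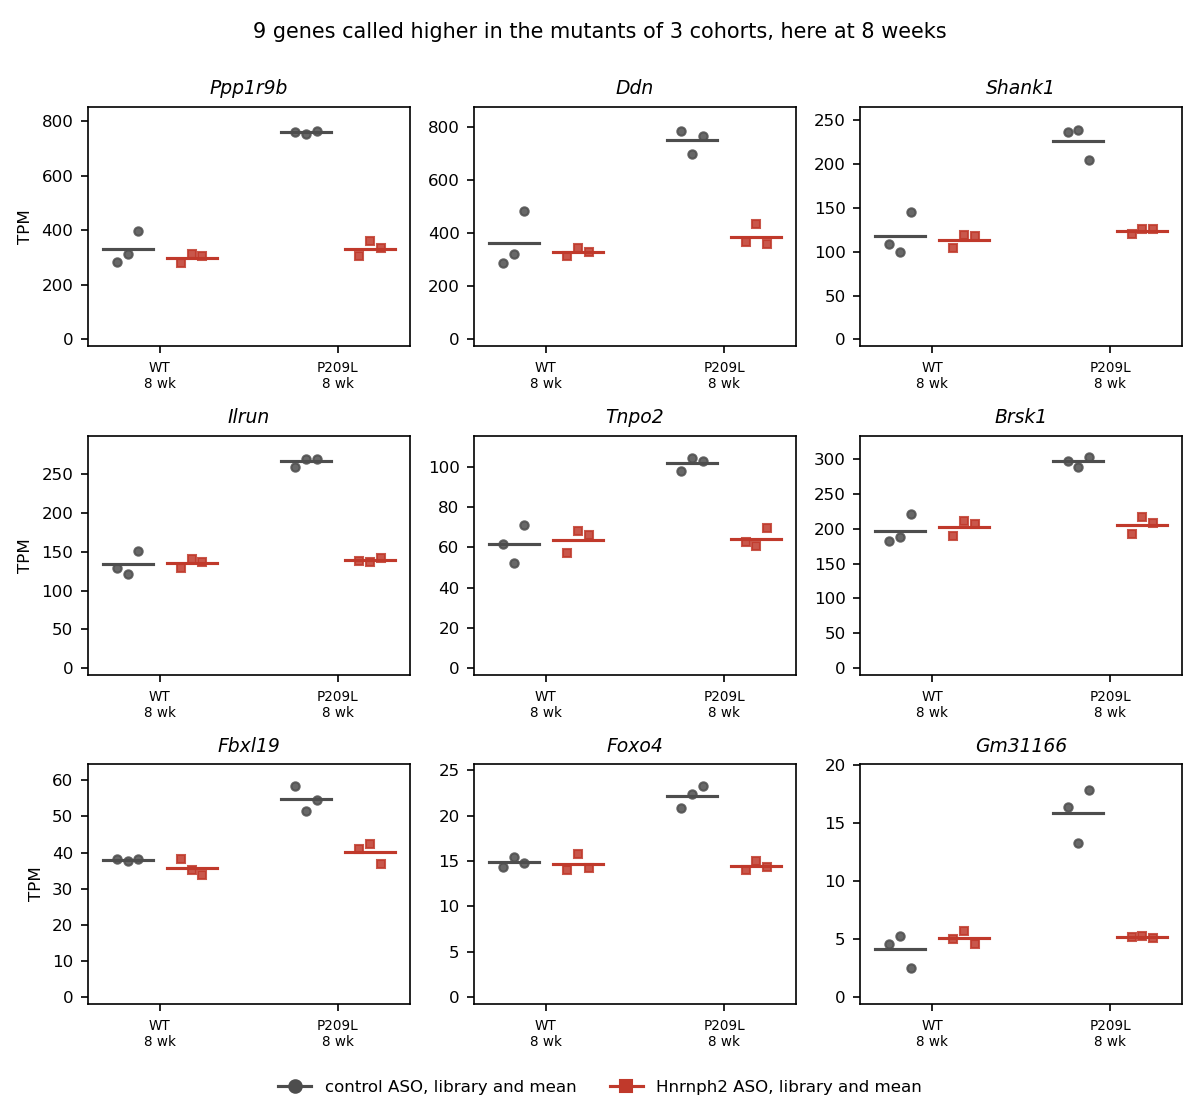
TPM of the 9 genes in every library at 8 weeks, WT and P209L, with the control ASO (grey circles) and the Hnrnph2 ASO (red squares); points are libraries (3 per group) and lines are means. In WT mice the circles and squares overlap in every panel, while the P209L controls lie above all other libraries.

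Between the ages, 16556 genes were tested for an ASO effect in WT at 8 weeks that differed from the mean effect in the 3-week WT cohorts, and limma called none, with 445 at an unadjusted p under 0.05. The smallest adjusted p, 0.77, belonged to Ndufa4l2, a hypoxia-induced relative of a mitochondrial subunit. It was at 5.6, 5.13 and 5.83 TPM in the controls and 7.90, 6.84 and 6.57 TPM with the ASO at 8 weeks (0.31, SE 0.089). At 3 weeks it went the other way, at 6.06 to 7.19 against 4.62 to 5.61 TPM in the P209L cohort and at 6.30 to 7.35 against 5.11 to 6.05 TPM in the R206W cohort. Age and cohort cannot be told apart in this comparison. The next genes by p were Rps12l1 and the microRNA gene Mir2139, which was listed at 0 in all controls and in 1 ASO library and at 36.6 and 21.2 TPM in the other 2. Mir2139 was listed at 0 in every library of all other groups of the series. It therefore met the filter of 1 TPM only through the 8-week WT ASO libraries, the group where it was high. Its place by p is a description for that reason.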

How the data were processed

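Total RNA libraries were made with a stranded kit, per the labels' protocols, and build mm10, RSEM, GATK 4.0.4.0, the aligner STAR 2.7.1a and Trim Galore are listed in the submitters' processing notes. The authors deposited TPM per gene symbol, which holds no counts or depth, so no count model was used. After a log2(TPM + 1) transform, values were tested in R 4.3.3 by limma 3.58.1 (two-sided moderated test with an intensity trend, Benjamini-Hochberg adjustment over all genes tested). The fit held the 4 groups of 8-week mice, 12 libraries with 8 residual degrees of freedom, and genes averaging at least 1 TPM. Calls required an adjusted p under 0.05. The age contrast used all 35 libraries. Single values used exact permutation tests. Of the tested rows, 15582 matched RefSeq, which gave biotypes and coordinates, and 59 shared a symbol with another row. No 2 libraries were identical. The comparison and its gene lists were chosen with earlier results of these data known. Named genes were the family, called genes, those with the smallest p among groups that did not overlap, and the members of each list with the smallest p, and other genes named were chosen after their values were seen. The procedure was tested on simulated data. No sequence of the ASOs or of the family members was used here.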

Additional observations from a re-analysis of the deposited data

Results flagged for a closer look

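Ilrun was singled out because the effect of the Hnrnph2 ASO differed between the genotypes by a test of the difference itself, -0.96 on the log2 scale (P209L minus WT, limma, adjusted p 0.0402). The WT groups at 8 weeks overlapped, at 121 to 151 TPM with the control ASO and 129 to 140 TPM with the Hnrnph2 ASO.

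Ndufa4l2 was singled out because every ASO library lay above every control library in WT at 8 weeks (0.31) and below every control library in the 3-week WT of the P209L cohort (-0.30) and of the R206W cohort (-0.21). The difference of each single pair of cohorts was not tested, and the test against the mean of both 3-week cohorts did not pass (limma, adjusted p 0.77). In P209L mice at 8 weeks the groups overlapped (-0.02).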

How the results depend on the processing

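Hnrnph2 was called under every alternative run. Hnrnph1 kept its direction and was called only in the fit of all 35 libraries (0.36, adjusted p 0.0474 by limma). The 3 genes called in WT became 1 with no filter on low values and 1 among protein-coding genes only, 6 in a fit of the WT groups alone, 6 with array weights, and 1 to 4 with any 1 library left out. The single genotype interaction became 0 without the trend, 25 with array weights, 12 in the fit of all 35 libraries and 0 to 7 with 1 library left out, 7 of them without WT control replicate 3. The age contrast gave 5 calls with array weights, 1 in the fit of the 18 WT libraries alone and 0 to 2 with 1 library left out. The fit of the WT groups alone lost both pseudogenes and called Gm24451, Snora5c, Snord8, Gm27038 and Gm27357 beside Hnrnph2. Array weights and the protein-coding subset were chosen after seeing the data. The cause of these shifts was not tested.

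Same-numbered control and ASO libraries did not deviate together (r of 0.03, -0.19 and 0.14), so the numbers were not taken as pairing. With the replicate number as a block, 1 gene was called in WT and 0 for the genotype interaction.

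Directions of changes near 0 turned for some genes. Rescaling by median ratios gave -0.0042 for Hnrnpf, -0.019 for Ilrun and -0.00272 for Brsk1. Array weights gave -9.70e-05 for Hnrnpf, 0.021 for Ppp1r9b, 0.10 for Ddn, 0.051 for Shank1 and 0.0081 for Foxo4. With any 1 library left out, the range was -0.094 to 0.0063 for Hnrnph3, -0.014 to 0.087 for Hnrnpf, -0.0069 to 0.19 for Grsf1, -0.044 to 0.12 for Ilrun, -0.24 to 0.0025 for Ppp1r9b, -0.26 to 0.11 for Ddn, -0.054 to 0.16 for Tnpo2, -0.014 to 0.12 for Brsk1, -0.15 to 0.12 for Shank1 and -0.065 to 0.015 for Foxo4. TPM keeps no read total, so which low values rest on few reads is unknown, and 3 libraries per group limit what could be called.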
